A study of Mus musculus with 8 samples.

Results

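The glucocorticoid receptor and its target genes were examined in the retina of mice that lack lysophosphatidylcholine acyltransferase 1 (Lpcat1, an enzyme that adds a fatty acid to lysophosphatidylcholine). The set held 10 genes of the 20018 named on the array, chosen by symbol through the RefSeq transcript that each probe carries: Nr3c1, Nr3c2, Hsd11b1, Fkbp5, Tsc22d3, Sgk1, Errfi1, Zbtb16, Klf9 and Hif3a. They were read by 13 of 55681 probes, and 11 of these 13 were bright enough to be tested, among 33972 tested probes in all. Every one of the 10 genes had at least 1 tested probe. The comparison asks which transcripts of hormone signalling differ between wildtype (WT) and Lpcat1 knockout (KO) retinas.

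Total RNA from the whole retina of C57BL/6 mice at 2 weeks of age was hybridised in 1 colour (Cy3) to Agilent arrays, with 4 WT and 4 KO samples and 1 array for each sample. The KO is a global deletion, first made on a C57BL6/N background and crossed to C57BL6/J so that no animal was homozygous for the rd8 mutation of Crb1. How many mice gave each sample, and the time of day at which retinas were taken, are not given in the sources used here, so p-values measure only the spread between these samples, which may be technical. The arrays shared a single slide with WT in one row and KO in the other, and row and genotype cannot be told apart. Between 33110 and 36366 probes were well above background on each array and the 75th percentile of the signal was 638.4 to 737.8, while the Lpcat1 probe was lower by -0.46 in KO on the log2 scale (SE 0.04, limma adjusted p = 0.0036). All 9 rod photoreceptor markers were well above background on all 8 arrays.

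Glucocorticoids are steroid hormones of the adrenal gland that enter cells and bind the glucocorticoid receptor, which waits in the cytoplasm in a complex with heat shock proteins. The bound receptor moves to the nucleus, attaches to DNA as a pair at a palindromic sequence, and raises or lowers transcription of nearby genes. In the retina the receptor is known above all from Müller glia, and its targets include its own inhibitor, anti-inflammatory factors, kinases and clock-linked transcription factors.

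Because Sgk1 was the only member that passed the test, and because Sgk1 and Tsc22d3 are textbook direct targets, the stretches of their promoters that hold the receptor's recognition letters are printed first. The windows are those of RefSeq on GRCm38.p6, from 250 bases before to 50 bases after each annotated start. Windows existed for 8 of the 10 genes (16 windows), and Nr3c1 and Zbtb16 had none. The letters searched on both strands were the palindrome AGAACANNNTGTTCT and its single arm AGAACA, which also occurs inside the palindrome. The single arm was present in 6233 of 32851 promoter windows (19%), and the palindrome in 3 of them (0.00913%). Among the members, 4 of 16 windows held the arm: 3 of the 6 Sgk1 windows and 1 of the 3 Tsc22d3 windows. The 250 bases before each start are given 5′ to 3′ on the strand of the gene, and capitals mark the arm, read as AGAACA or as its reverse complement TGTTCT.
Sgk1, chr10:21993640-21993889 (+): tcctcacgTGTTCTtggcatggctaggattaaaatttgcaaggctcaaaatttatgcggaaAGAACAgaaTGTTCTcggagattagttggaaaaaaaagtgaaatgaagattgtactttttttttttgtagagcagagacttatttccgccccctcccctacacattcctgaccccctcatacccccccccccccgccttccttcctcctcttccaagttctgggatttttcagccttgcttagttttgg
Sgk1, chr10:21881934-21882183 (+): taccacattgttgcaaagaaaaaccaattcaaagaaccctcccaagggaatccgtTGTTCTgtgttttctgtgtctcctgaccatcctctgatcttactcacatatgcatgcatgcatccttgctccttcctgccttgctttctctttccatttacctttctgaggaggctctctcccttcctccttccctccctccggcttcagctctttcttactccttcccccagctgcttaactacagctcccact
Sgk1, chr10:21991973-21992222 (+): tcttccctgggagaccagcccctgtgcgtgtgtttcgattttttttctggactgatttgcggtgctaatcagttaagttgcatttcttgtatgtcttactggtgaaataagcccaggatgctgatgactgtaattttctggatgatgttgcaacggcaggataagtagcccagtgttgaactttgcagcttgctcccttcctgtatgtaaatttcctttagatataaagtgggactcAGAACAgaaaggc
Tsc22d3, chrX:140600523-140600772 (-): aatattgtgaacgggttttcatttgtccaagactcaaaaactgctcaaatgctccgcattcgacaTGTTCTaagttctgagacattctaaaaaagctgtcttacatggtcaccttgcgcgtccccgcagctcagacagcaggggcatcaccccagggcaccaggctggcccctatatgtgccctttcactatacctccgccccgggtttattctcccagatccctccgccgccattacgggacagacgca
The first Sgk1 stretch held 1 of the 3 palindromes found over all windows, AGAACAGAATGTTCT at chr10:21993701-21993715, which begins 189 bases before the start, and a further arm 242 bases before it. In the other stretches the arm stands alone, 195 and 13 bases before the start in Sgk1 and 185 bases before it in Tsc22d3. These matches describe letters in a window. Binding of the receptor was not measured, and nothing follows from a window without a match.

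Of the 10 genes, 1 was called higher in KO (Sgk1), 0 were called lower and 9 were not called, where a call needs a change of more than 1.2-fold and a limma adjusted p below 0.05. Across all 14939 tested genes, 2.2% had a probe called higher and 1.77% had a probe called lower, and of all tested probes 1.38% were called higher and 1.54% lower. The difference, KO minus WT on the log2 scale, was above 0 for 11 of 11 tested probes, against 38% of all tested probes, with a median of 0.08 against -0.04. Across the scalings tried the share over all probes depended on the method, at 44.9% with quantile normalization and 49% with cyclic loess, where the median over all probes was -0.0029 and that of the members 0.12. In the reported fit the 95% interval of 7 of the 11 probes lay within a change of 1.2-fold in either direction (0.26 on the log2 scale), those of Klf9 and of the dim Nr3c1 probe only just, and for 3 probes that were not called (Nr3c2, Zbtb16 and Hif3a) the interval reached beyond it. In 3 of the 11 probes (Sgk1, Errfi1 and Klf9) every KO array lay above every WT array, which held for 6.05% of all probes. An unadjusted p under 0.05 was reached by 4 member probes, all higher in KO, and by 8.13% of all probes in that direction. The genes share the same 8 arrays and are not independent of each other. They were also chosen with earlier results of these data known, so their shared direction is not independent evidence. In whole retina, fewer cells of a type and less RNA per cell cannot be told apart, and the same is true of more. Levels below are log2 signals from which the 75th percentile of that array was subtracted, and a probe's level says nothing about that of another probe.

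**Figure D1:**
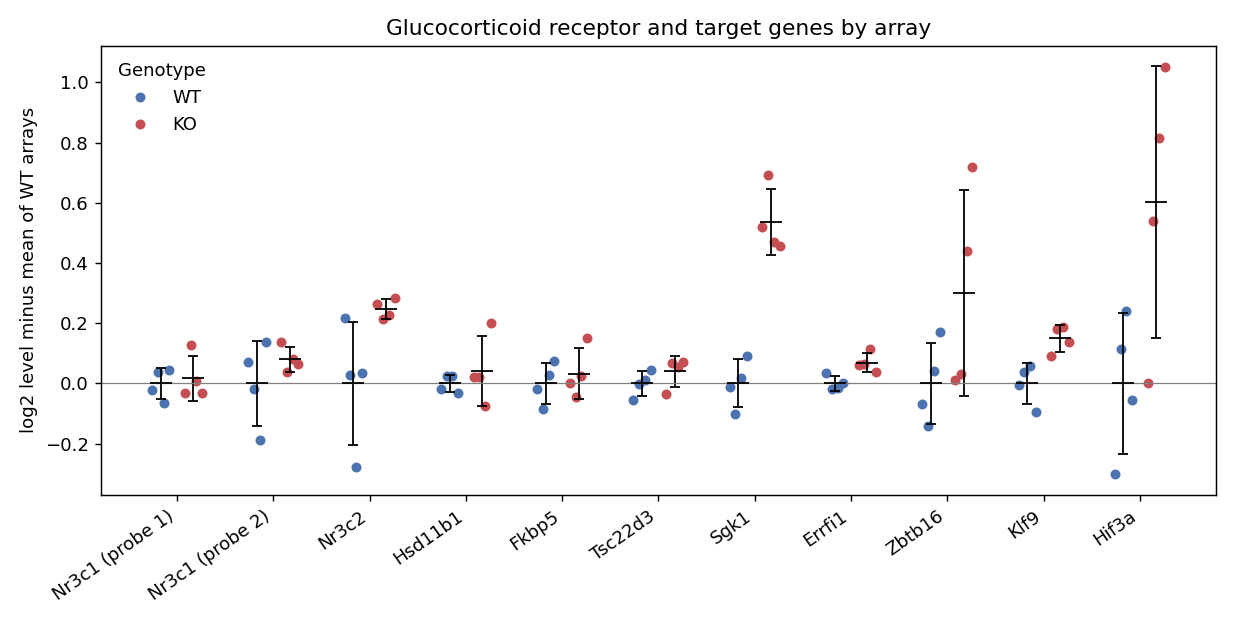
Level of each tested probe on each array (log2), drawn relative to the mean of the 4 WT arrays of that probe, with bars for the mean ± SD of 4 arrays. The Sgk1 arrays separate by genotype, the KO arrays of Zbtb16 and Hif3a spread widely, and 3 KO arrays of Nr3c2 and all 4 of Klf9 lie above the WT arrays by smaller amounts.

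The receptors came first. Nr3c1 (chromosome 18) encodes the glucocorticoid receptor itself and had a bright and a dim probe. On the bright probe the WT levels were 2.88, 2.94, 2.83 and 2.94 in replicates 1 to 4, and the KO levels were 2.87, 3.02, 2.90 and 2.86. The genotypes overlapped, and the difference was 0.02 (SE 0.05, 95% interval -0.10 to 0.13, limma adjusted p = 0.861). It was 0.050 with quantile normalization and 0.054 with cyclic loess. The dim probe read -2.41, -2.50, -2.67 and -2.35 in WT and -2.35, -2.45, -2.40 and -2.42 in KO, a difference of 0.08 (SE 0.07, interval -0.08 to 0.24, limma adjusted p = 0.529). With 1 array dropped the difference of the dim probe ran from 0.017 (without WT replicate 3) to 0.13 (without WT replicate 4), and with cyclic loess it was 0.12.

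Nr3c2 (chr8:76898083-77245012, GRCm38) encodes the mineralocorticoid receptor, which binds aldosterone and, with high affinity, glucocorticoids. Its probe read -2.75, -2.94, -3.25 and -2.93 in WT and -2.70, -2.75, -2.74 and -2.69 in KO. KO arrays were close together and 3 of the 4 lay above all WT arrays, whereas WT replicate 3 was the lowest of all. The difference was 0.25 (SE 0.09, interval 0.03 to 0.46), with an unadjusted p of 0.0298 and a limma adjusted p of 0.159, so it was not called. The probe was dim, with WT signals of 72.9 to 99.3 and KO signals of 95.4 to 109, and its difference was 0.14 with normexp background correction and 0.15 to 0.32 in the 8 runs that each dropped 1 array.

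Hsd11b1 (chr1:193221640-193264045) encodes the enzyme that regenerates active corticosterone from its inactive keto form inside cells, and thus sets local hormone supply. Over 10 spots per array its probe read -3.66, -3.61, -3.61 and -3.67 in WT and -3.61, -3.62, -3.71 and -3.44 in KO. The genotypes overlapped, KO replicate 4 being the highest and KO replicate 3 the lowest array, and the difference was 0.04 (SE 0.06, interval -0.09 to 0.18, limma adjusted p = 0.713). With cyclic loess the difference was 0.10. WT signals of 53.1 to 58.6 and KO signals of 48.7 to 62.4 were well above background on all 8 arrays.

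Fkbp5 and Tsc22d3 are the classical readouts of receptor activity. Fkbp5 (chr17:28398753-28486149) encodes a co-chaperone that lowers the hormone affinity of the receptor and is induced by it, a negative feedback. It read 0.60, 0.54, 0.65 and 0.70 in WT and 0.62, 0.57, 0.65 and 0.77 in KO. The genotypes overlapped almost completely, with a difference of 0.03 (SE 0.06, interval -0.09 to 0.16, limma adjusted p = 0.762). Tsc22d3 (chrX:140539528-140600522), known as glucocorticoid-induced leucine zipper, encodes an anti-inflammatory protein that holds back NF-κB and AP-1. Its levels were 2.50, 2.55, 2.56 and 2.60 in WT and 2.52, 2.62, 2.61 and 2.63 in KO. 3 KO arrays lay just above the WT arrays and KO replicate 1 fell among them, giving a difference of 0.04 (SE 0.04, interval -0.06 to 0.14, limma adjusted p = 0.600), which ran from 0.022 without WT replicate 1 to 0.065 without KO replicate 1 and was 0.073 with cyclic loess. For both genes the upper limit of the reported interval was below 1.2-fold, and these were among the better measured probes, with a pooled SD within genotypes of 0.076 for Fkbp5 and 0.046 for Tsc22d3 against a median of 0.0965 over all tested probes.

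Sgk1 (chr10:21882184-21999903) encodes serum- and glucocorticoid-regulated kinase, which keeps sodium and potassium channels and transporters at the cell surface and responds to serum, osmotic change and growth factors as well as to steroids. Its probe (A_55_P2039416, transcript NM_001161845) read 1.08, 0.99, 1.11 and 1.18 in WT and 1.61, 1.78, 1.56 and 1.54 in KO. Every KO array lay above every WT array, and the lowest KO array was clear of the highest WT array. Sgk1 rose by 0.54 (SE 0.07, interval 0.39 to 0.69), from 1.09 ± 0.08 to 1.62 ± 0.11 (SD, n = 4 each), a fold change of 1.45 (1.31 to 1.61), with a limma adjusted p of 0.0088. The exact two-sided permutation p was 0.0286, the smallest that 4 against 4 arrays can give. By absolute difference the probe ranked 511 among the 33972 tested. Signals ran from 1411 to 1597 in WT and from 1882 to 2538 in KO, well clear of background. The call held in 8 of 8 runs that left out 1 array, with differences of 0.48 to 0.57 and limma adjusted p of 0.0174 to 0.0348. Across the 12 other alternatives the difference was 0.49 to 0.56. The call was lost with replicate number as a block (adjusted p = 0.056) and with a minimum fold of 1.5.

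**Figure D2:**
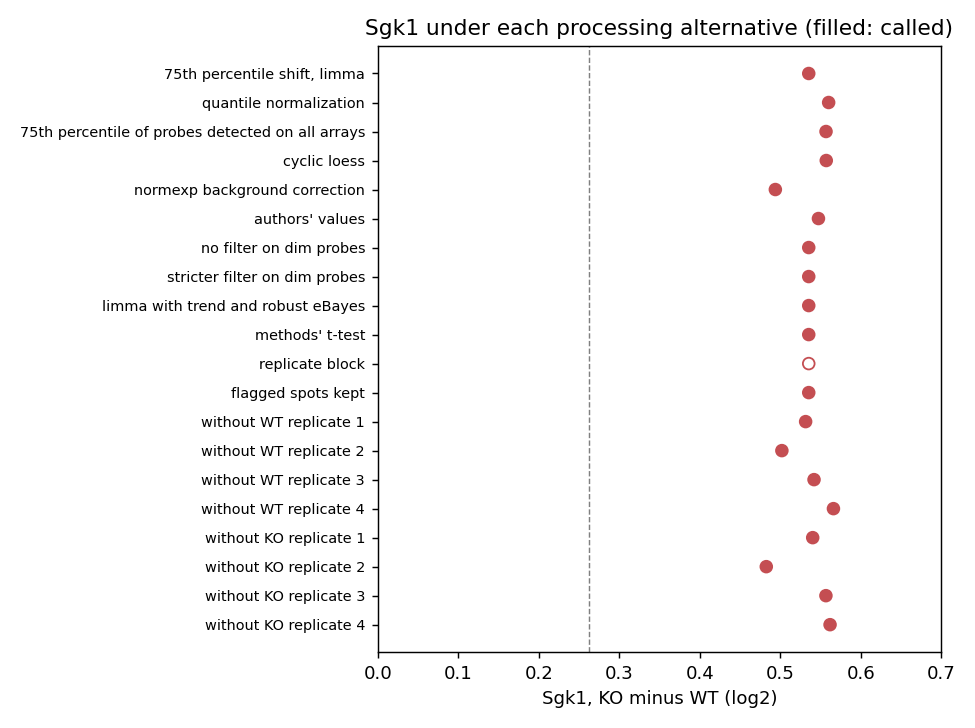
Difference of Sgk1 between KO and WT (log2, horizontal axis) for each way of processing the arrays, the first being the one reported, with the dashed line at a fold change of 1.2. Filled points were called. All values lie between 0.48 and 0.57, and the open point is the fit with a replicate block. The minimum fold of 1.5, under which the call was also lost, leaves the difference unchanged and is not drawn.

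Cell type markers moved with genotype as well, and their part in the Sgk1 result was not tested. The summed level of 9 rod markers was 10.35 to 10.40 in WT and 10.12 to 10.18 in KO, with 4 of 9 called lower. The sum of 10 Müller glia markers was 8.42 to 8.50 in WT and 8.68 to 8.71 in KO. The difference was above 0 for 9 of 10, and 3 were called higher (Clu, Apoe and Kcnj10). Clu and Apoe were the brightest and weigh most in the sum, while Slc1a3 differed by -0.04, Vim by 0.03 and Sox9 by 0.05. Microglia markers summed to 3.31 to 3.41 in WT and 3.69 to 3.73 in KO, with 5 of 9 called higher. Of the other marker lists, none held a called gene. Astrocyte markers (4 tested) summed to 1.75 to 2.12 in WT and 2.14 to 2.22 in KO, and endothelial markers (6) to 4.42 to 4.47 and 4.27 to 4.41. Pigment epithelium markers (4 of 5 tested, Best1 not) gave 3.42 to 3.78 in WT and 3.48 to 3.84 in KO, lens markers (4 of 5, Mip not) 0.18 to 0.34 and 0.21 to 0.39, and blood markers (2, with no probe matched to Hbb-b1) 2.78 to 3.16 and 2.91 to 3.36.

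Errfi1 (chr4:150853796-150868889) encodes an inhibitor of the epidermal growth factor receptor that is induced both by glucocorticoids and by growth factor signalling. It was the most tightly measured member, with a pooled SD of 0.028. WT arrays read 2.28, 2.23, 2.24 and 2.25 and KO arrays read 2.31, 2.31, 2.36 and 2.29. The genotypes did not overlap, but the lowest KO array lay only just above the highest WT array. The difference of 0.07 (SE 0.04, interval -0.01 to 0.15) had a limma adjusted p of 0.278.

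The transcription factors among the targets were Klf9, Zbtb16 and Hif3a. Klf9 (chr19:23141226-23168129) encodes a zinc finger repressor induced by glucocorticoids and thyroid hormone. It read 3.51, 3.55, 3.57 and 3.42 in WT and 3.60, 3.69, 3.70 and 3.65 in KO. Every KO array lay above every WT array, with a difference of 0.15 (SE 0.05, interval 0.04 to 0.26), an unadjusted p of 0.0117 and a limma adjusted p of 0.0969. With a fitted trend and robust eBayes the limma adjusted p was 0.0277, but the difference stayed under 1.2-fold in all 12 alternatives and all 8 runs without 1 array (0.12 to 0.19), and Klf9 was not called in any.

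Zbtb16 (chr9:48651797-48836225) encodes a zinc finger protein that, like Fkbp5, responds strongly to glucocorticoids in many tissues. Its levels were -1.47, -1.54, -1.36 and -1.23 in WT and -1.38, -1.37, -0.96 and -0.68 in KO. KO replicates 3 and 4 lay above all WT arrays, while KO replicates 1 and 2 fell inside the WT range. The difference was 0.30 (SE 0.16, interval -0.07 to 0.67, limma adjusted p = 0.302), and it ran from 0.16 without KO replicate 4 to 0.40 without KO replicate 1.

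Hif3a (chr7:17030993-17062427) encodes a hypoxia-inducible factor subunit that can damp the response to low oxygen and is induced by glucocorticoids in several tissues. It had 3 probes, and only probe 1 (A_55_P2015541) was tested. Probe 1 read -0.57, -0.15, -0.02 and -0.32 in WT and -0.26, 0.28, 0.55 and 0.79 in KO. 3 KO arrays lay above all WT arrays and KO replicate 1 fell within the WT range. The difference of 0.60 was larger than that of Sgk1 in size but was measured with far more spread (SE 0.22, interval 0.10 to 1.11, fold change 1.52 with limits of 1.07 and 2.16), and the limma adjusted p was 0.147. Its pooled SD of 0.36 and that of Zbtb16 (0.26) exceeded the 90th percentile of all tested probes (0.25). Without KO replicate 1 the difference was 0.80 and Hif3a was called (limma adjusted p = 0.0403), and without KO replicate 4 it was 0.45.

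The other Hif3a probes were near the floor of the array. Probe 2 read -4.43, -4.53, -4.51 and -4.95 in WT and -4.82, -3.62, -4.79 and -4.33 in KO, and was well above background on 3 arrays of each genotype. Probe 3 read -5.56, -5.06, -5.04 and -5.54 in WT and -5.78, -4.68, -4.75 and -4.54 in KO, and was well above background on 1 array of each genotype. The genotypes overlapped on both. KO replicate 1 was the lowest KO array on all 3 Hif3a probes.

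**Figure D3:**
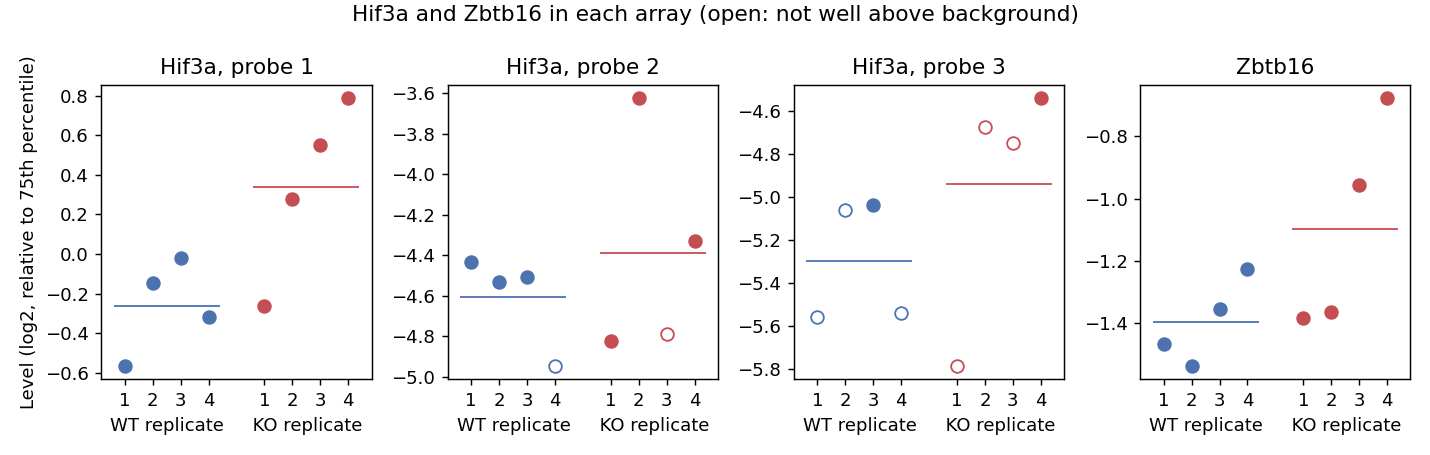
Levels (log2, relative to the 75th percentile) of the 3 Hif3a probes and of Zbtb16 on each array, with a line at each genotype's mean and open points where the probe was not well above background. KO replicate 1 sits within the WT range for Hif3a probe 1, and KO replicates 3 and 4 are the highest arrays for Zbtb16 and for Hif3a probe 1.

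**Figure D4:**
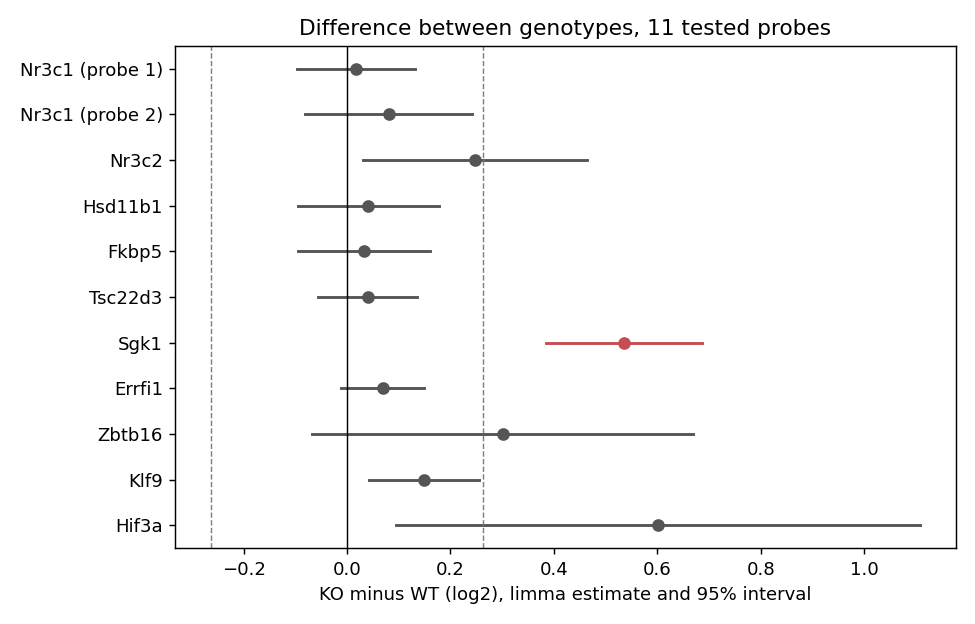
KO minus WT (log2) for the 11 tested probes with limma's 95% interval, dashed lines at a change of 1.2-fold, and the called probe in red. All 11 estimates lie above 0, and only Sgk1 has an interval wholly beyond the line at 1.2-fold.

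The rest of the pathway was then described from 6 lists that held 99 genes, of which 78 were tested, each by its brightest probe. In all, 10 of the 78 were called higher and 2 lower, against 1.99% and 1.49% of all tested genes by the same rule. Of the 10, 9 came from the list of other induced genes, put together with earlier results of these arrays known. The total is therefore not independent evidence. The other 5 lists, with 49 tested genes, gave 1 called higher, in the repressed inflammatory list. No gene of the machinery around the receptor was called. Of 15 genes of the receptor complex (the chaperones Hsp90aa1, Hsp90ab1 and Hspa8, and the co-chaperones Fkbp4, Ptges3 and Ppid among them), all were tested and 0 were called, with differences from -0.07 (Ppp5c, a phosphatase) to 0.11 (St13). Their median was 0.01, against -0.02 for all tested genes, and it ran from -0.014 without WT replicate 2 to 0.075 with cyclic loess. Of 13 coregulators, 0 were called. Their median was -0.05, and it ran from -0.067 without WT replicate 3 to -0.0125 with cyclic loess. The extremes were Nrip1, a corepressor (-0.17, limma adjusted p = 0.0512), and Ncoa3, a coactivator (0.19, limma adjusted p = 0.0745).

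Steroid supply gave 10 tested genes of 14, with 0 called and a median of -0.07, a sign that turned with no filter on dim probes (0.020), without WT replicate 3 (0.0098) and without KO replicate 2 (0.0082). Pomc, the precursor of the pituitary hormone that drives the adrenal gland, differed by -0.21 (limma adjusted p = 0.0441), and Abcb1a, a pump that carries steroids out of cells, differed by 0.24 (limma adjusted p = 0.0463). Both were below the minimum fold. With other scalings, 1 gene (percentile of probes detected throughout) or 2 genes (cyclic loess) of this list were called higher. Hsd11b2, the enzyme that inactivates corticosterone, was not well above background on any array. The 7 tested genes of 11 in sodium and potassium transport, the system that Sgk1 acts on, included 0 called genes, with a median of -0.04 that was 0.031 without KO replicate 1.

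Most called genes belonged to the list of other genes that glucocorticoids induce. Of its 32 genes 29 were tested, and 9 were called higher and 1 lower. The difference was above 0 for 24 of 29, against 42.2% of all tested genes, with a median of 0.20. Many of these genes also respond to cytokines, metals or growth factors, and Glul is also in the Müller glia marker list. The list was put together with earlier results of these arrays known, so its direction is not independent evidence. Arrdc2, an arrestin-like adaptor, read 1.07, 1.00, 1.21 and 1.01 in WT and 1.55, 2.10, 2.03 and 2.38 in KO. All KO arrays lay above all WT arrays, and Arrdc2 rose by 0.94 (SE 0.16, limma adjusted p = 0.0204). Its other probe was also called, at 0.93.

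Bcl6, a transcriptional repressor, read 1.14, 1.21, 1.25 and 1.05 in WT and 1.54, 1.71, 1.74 and 1.85 in KO, without overlap, and rose by 0.55 (SE 0.07, limma adjusted p = 0.0105). Mertk, a receptor for the uptake of dying cells and shed outer segments, read -0.81, -0.93, -0.83 and -0.99 in WT and -0.58, -0.51, -0.37 and -0.10 in KO. It rose by 0.50 (SE 0.10, limma adjusted p = 0.0348), also without overlap. Leaving out 1 array ended the call of Arrdc2 in 5 of 8 runs and that of Mertk in 6 of 8, the highest limma adjusted p being 0.0641 and 0.0956, each time in the run that dropped WT replicate 2. Bcl6 lost its call in 0 of 8. With replicate number as a block, the calls of Arrdc2 (limma adjusted p = 0.0580), Bcl6 (0.0518) and Mertk (0.0821) were lost, and with a minimum fold of 1.5 those of Bcl6 and Mertk. With no filter on dim probes Arrdc2 (0.0688) and Mertk (0.0990) were not called, and Mertk was not called by the methods' t-test, so that Mertk was called in 8 of the 12 other alternatives and Arrdc2 and Bcl6 in 10 each. The further called genes were Cebpd (0.90), Mt2 (0.75), Mt1 (0.66), Cebpb (0.54) and Per1 (0.36).

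Outside the rule for named genes, and named after their values were seen, Nedd9 was higher by 0.31 and Cdkn1c, a cell cycle inhibitor, was the gene called lower (-0.29, limma adjusted p = 0.0148), a call lost with the replicate block (limma adjusted p = 0.0560), with no filter on dim probes (0.0598), with a minimum fold of 1.5 and with cyclic loess, where the difference was -0.26. Among well known targets that were not called, Dusp1, a phosphatase that switches off MAP kinases, read -1.02, -0.63, -0.97 and -0.80 in WT and -0.62, -0.15, -0.24 and -0.56 in KO. These groups did not overlap, and the difference was 0.47 (SE 0.13, limma adjusted p = 0.0723). Nfkbia, the inhibitor of NF-κB, differed by 0.20 (limma adjusted p = 0.0375) and stayed below the minimum fold. Glul, glutamine synthetase, differed by 0.14 and Ddit4, an inhibitor of mTOR, by 0.05, while Lcn2 differed by -0.23. For Sult1a1 both probes were higher in KO and only the call differed, the brighter one at 0.21 and not called, the dimmer one at 0.29 and called. For Tgm2 they gave 0.17 and 0.52, neither called.

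**Figure D5:**
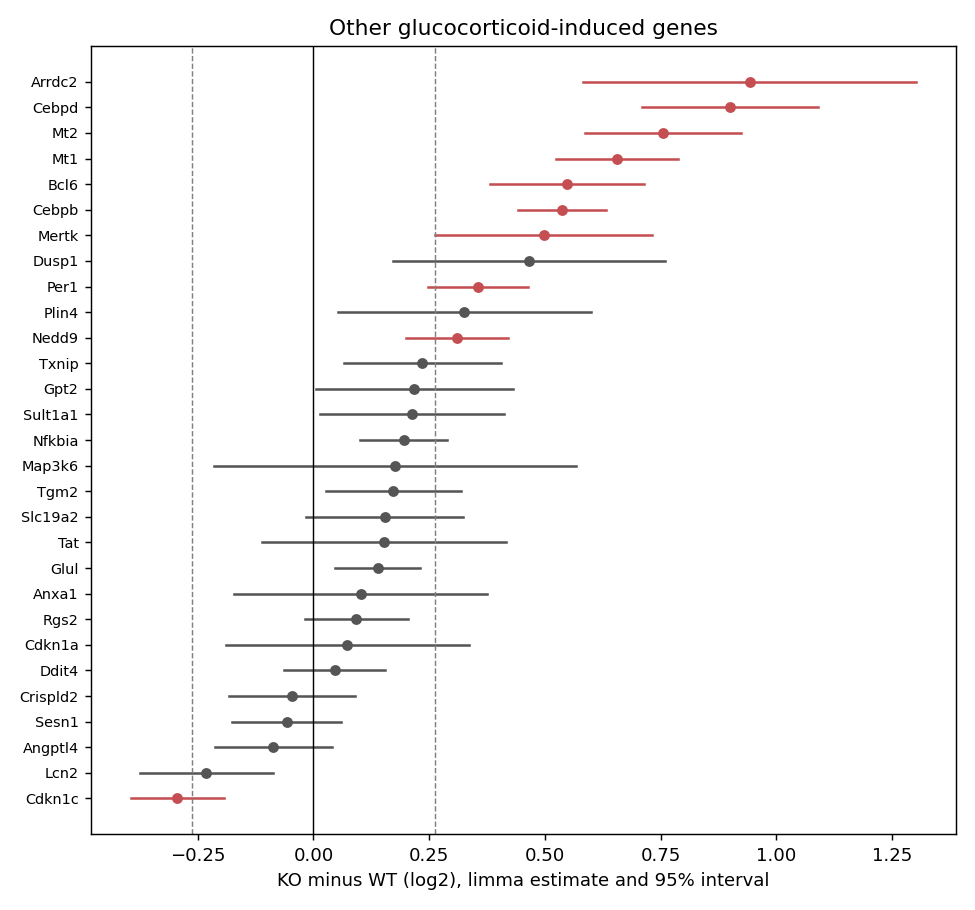
KO minus WT (log2) with limma's 95% interval for the 29 tested genes of the list of other glucocorticoid-induced genes, ordered by size, with dashed lines at a change of 1.2-fold and called genes in red. The 9 genes called higher include Arrdc2 at 0.94 and Nedd9 at 0.31, and Cdkn1c at -0.29 is the gene called lower.

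Of 14 inflammatory genes that glucocorticoids repress, 4 were well enough above background to be tested, with a median of 0.10. With no filter on dim probes, which brings in genes near the floor, the median was 0.22. Vcam1, an adhesion molecule, read 1.76, 1.89, 1.87 and 1.91 in WT and 1.39, 1.31, 1.44 and 1.37 in KO and fell by 0.48 (SE 0.05, limma adjusted p = 0.0043), and its other probe was called lower too. Mmp9, a matrix protease, rose by 0.31 (SE 0.07, limma adjusted p = 0.0455), a call that was lost in 7 of the 8 runs with 1 array dropped, where WT replicate 2 again gave the highest limma adjusted p (0.116), and in 5 of the 12 other alternatives (adjusted p up to 0.120), quantile normalization among them. Across the 12 other alternatives, 0 to 2 genes of the list were called higher. Ccl5, a chemokine, differed by 0.75 (SE 0.18, limma adjusted p = 0.0541) and Nos2 by -0.11. Among the genes not tested were the cytokines Il1b, Il6 and Tnf and the prostaglandin synthase Ptgs2, so most of this list could not be read at the sensitivity of these arrays.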

How the data were processed

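Total RNA of whole retina from 4 WT and 4 KO samples at 2 weeks of age was hybridised in 1 colour, and samples were grouped and numbered by their labels. The deposited scanner files hold intensity on a linear scale, which the authors obtained with Agilent Feature Extraction 10.7.1.1 (submitters' processing notes), with background subtracted and no scaling between arrays. The authors' 75 percentile shift gave the deposited log2 values of the series, used here only as an alternative. Per-sample columns not used numbered 0.

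The level of a probe was its processed signal in log2 after subtracting the 75th percentile of the 59305 spots that were not controls. Outlier-marked spots (86 to 147 per array) were left out and spots of a probe were averaged. Tested probes had to be well above background in every WT or in every KO array. Symbols came from RefSeq genes of GRCm38.p6 by transcript (26413 probes, 47.4%), whereas the array was designed on mm9, so coordinates are those of genes, not probes.

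KO and WT were fitted by lmFit and eBayes (limma 3.58.1, R 4.3.3) with Benjamini-Hochberg adjustment over 33972 probes, after the procedure was tested on simulated data. Calls required an adjusted p below 0.05 together with more than 1.2-fold. For single values an exact two-sided permutation test was used. All members with every probe are named, and of each pathway list (receptor complex, coregulators, steroid supply, other induced genes, sodium and potassium transport, repressed inflammatory genes) the called genes, at most 8. Other genes named were chosen after their values were seen. Members and lists were chosen with earlier results of these data known. Alternatives were other scalings (quantile, the percentile of probes detected throughout, cyclic loess), normexp correction (offset 50), the authors' values, no filter or a stricter one, a trend with robust eBayes, the methods' unpaired t-test, a replicate block, outlier-marked spots kept, a minimum fold of 1.5, and each array left out. Precision is limited by the 8 arrays.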

Additional observations from a re-analysis of the deposited data

Results flagged for a closer look

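Among 48 groups of 4 arrays checked, 3 held an array that stood apart from the other 3 of its genotype, and chance alone marks about 1 group in 20. Tsc22d3 was lowest in KO replicate 1, at 2.52 against 2.61 to 2.63 on the other KO arrays. Hif3a probe 3, which was well above background on only 1 array of each genotype, was lowest in KO replicate 1 at -5.78, against -4.75 to -4.54. Mt2, of the list of other glucocorticoid-induced genes, was highest in WT replicate 4 at 3.42, against 3.30 to 3.31 on the other WT arrays. Over the 11 tested member probes, KO replicate 4 was the highest KO array in 6 and KO replicate 1 the lowest in 4.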

How the results depend on the processing

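All 11 tested member probes kept a difference above 0 in the 12 alternatives that used every array. When 1 array was left out, 9 to 11 of them did. Reversals occurred only in genes near 0 that were not called: with 1 array left out, the bright Nr3c1 probe ranged from -0.019 (without KO replicate 2; -0.0036 without WT replicate 3) to 0.034, Hsd11b1 from -0.011 (without KO replicate 4) to 0.081, and Fkbp5 from -0.0063 (without KO replicate 4) to 0.059. The count of members called higher (1) was 0 with a minimum fold of 1.5 and ran from 1 to 2 when arrays were left out, Hif3a being added without KO replicate 1. For the pathway lists, the 10 genes called higher became 13 with cyclic loess, 6 with no filter on dim probes, 4 with a minimum fold of 1.5 and 6 to 10 when arrays were left out, the lowest without WT replicate 2. The 2 called lower became 1 with cyclic loess, 1 with no filter and 0 with a minimum fold of 1.5. Over all probes, 992 were called (470 higher, 522 lower), 246 with no filter, 138 with a minimum fold of 1.5 and 391 to 1182 when arrays were left out, and the directions split 581 to 372 with the percentile of probes detected throughout and 629 to 341 with cyclic loess.

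Replicate numbers are shared between genotypes, but same-numbered samples deviated together with r of 0.25, 0.07, 0.04 and 0.11 for numbers 1 to 4, so the numbers were not taken to pair the samples. With replicate number as a block, 0 members were called higher (Sgk1 at 0.54, limma adjusted p = 0.056), the pathway lists gave 5 higher (Cebpd, Mt2, Mt1, Cebpb and Per1) and 1 lower (Vcam1), and all probes gave 395. Every sample except WT replicate 3 correlated best with the sample of its own number, a hint from the data and not from the design.

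Signal limits the 2 dim Hif3a probes, which were not well above background on every array, and the repressed inflammatory list, of which 10 of 14 genes could not be read.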
